A study of Saccharomyces cerevisiae with 14 samples.

Results

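The genes described here encode the enzymes that form disulfide bonds in the endoplasmic reticulum (ER) of budding yeast (Saccharomyces cerevisiae). The list names the protein disulfide isomerase family, PDI1, EUG1, MPD1, MPD2 and EPS1, and the ER thiol oxidases ERO1 and ERV2. All 7 genes were found by name on both array formats, among 5315 genes named on both, with 1 probe set each per format. All 7 passed the filter on low signals, as did 4287 of the 5315 genes, and none of their probe sets is marked as cross-hybridising.

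The study set ARV1 mutants against controls, a comparison whose title names the unfolded protein response, and used poly(A) RNA from 5 samples on Affymetrix arrays. The 3 mutant samples were mutant 1 (isolate SCY820) and mutant 2 (isolate SCY840) on the Ye6100 array, and mutant 3 (isolate SCY840 again) on the S98 array. The 2 controls were control 1/2 (strain SCY328) on Ye6100 and control 3 (strain SCY2004) on S98. All strains shared the W303 background and mating type a, and were harvested in mid-logarithmic growth in the rich glucose medium YEPD, at an A600 between 0.5 and 0.6. SCY820 and SCY840 are single isolates, and the sources used here do not give the kind of ARV1 mutation. ARV1 encodes an ER membrane protein linked to lipid transport. Mutants 1 and 2 were both compared with control 1/2, so an error in that control enters both ratios, and mutant 3 was compared with control 3.

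Proteins that enter the ER acquire disulfide bonds from protein disulfide isomerases, whose paired active-site cysteines pass oxidising equivalents to a folding protein and can also rearrange bonds that formed wrongly. The isomerase is oxidised again by a flavoprotein, mainly Ero1, which hands the electrons on to oxygen. In yeast PDI1 and ERO1 are essential genes, and several members of the family are known targets of the unfolded protein response, in which the sensor kinase Ire1 activates the transcription factor Hac1. As a secretory cell grown in rich medium, yeast needs this relay for cell wall and vacuolar proteins.

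The deposited values are MAS5 signals, linear intensities with 1 value per probe set and sample. The 2% trimmed mean of the signals was 249.7 in mutant 1, 249.7 in mutant 2 and 250.1 in control 1/2, and 250.1 in mutant 3 against 500.3 in control 3, and the S98 pair was brought to a common value before use. ARV1 had a signal of 1.0 in mutant 1 and 2.2 in mutant 2, both under the floor of 2.4, against 33.4 in control 1/2, and a scaled signal of 6.79 in mutant 3 against 51.8 in control 3. ARV1 was therefore at least 13.9-fold lower in mutants 1 and 2. It failed the filter on low signals and was not tested, and no fold is given on S98, where its mutant 3 signal was below the filter of 28.1. Over the Ye6100 samples the 5 genes specific to mating type a had signals between 30 and 4273 and the 4 genes specific to mating type alpha between 3.5 and 27.9, and over the S98 samples between 40.3 and 3063 and between 19.4 and 76.5. ACT1, the actin gene, has probe sets named 5 and 3 for the ends of the transcript, and the ratio of 5' to 3' signal was 0.764 in mutant 1, 0.351 in mutant 2 and 0.781 in control 1/2, against 1.17 in mutant 3 and 1.15 in control 3. RNA quality as read by this ratio therefore set mutant 2 apart, and its part in the results below was not tested. Whether the samples came from separate cultures is not labelled, and a p-value here therefore covers just the spread among these 5 samples, which may be technical.

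Most genes of ER disulfide formation stood higher in the ARV1 mutants. ERO1 was 3.90-fold, 4.06-fold and 4.43-fold its control in mutants 1, 2 and 3, and MPD1 and EUG1 were at least 2-fold their controls in each mutant. PDI1 and MPD2 stood 1.94-fold to 3.91-fold their control on Ye6100 and 1.36-fold and 1.16-fold on S98, ERV2 was higher by less than 2-fold in each mutant, and EPS1 had no single direction. Of the 7 genes, 6 exceeded their control in every mutant, as 26.2% of all tested genes did, and 0 lay below it in every mutant, as 14.6% did. With each column centred on its median the count was 4 of 7, since MPD2 in mutant 3 and ERV2 in mutant 1 then lay just below their controls, against 18.6% of all genes, and with quantile normalization it was 6 of 7 against 21.9%. Counted by sample, 4 of the 7 genes were at least 2-fold higher in mutant 1 (15.3% of tested genes), 5 in mutant 2 (12.5%) and 3 in mutant 3 (9.98%). None of the 7 was 2-fold lower in any mutant, where 4.08%, 16.8% and 1.49% of tested genes were in mutants 1, 2 and 3. PDI1, EUG1, MPD1 and ERO1 were at least 2-fold higher in both Ye6100 mutants and also higher in mutant 3, as were 4.34% of tested genes. At least 2-fold higher in all 3 mutants were 3 of the 7, ERO1, MPD1 and EUG1, against 2.08% of tested genes. With 1 mutant left out, the count 2-fold higher in both others was 3 of 7 without mutant 1 (2.43% of tested genes), 3 without mutant 2 (5.51%) and 4 without mutant 3 (4.76%). With all mutants the count was 1 of 7, ERO1, both with median centring (1.42% of all genes) and with quantile normalization (1.68%).

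**Figure D1:**
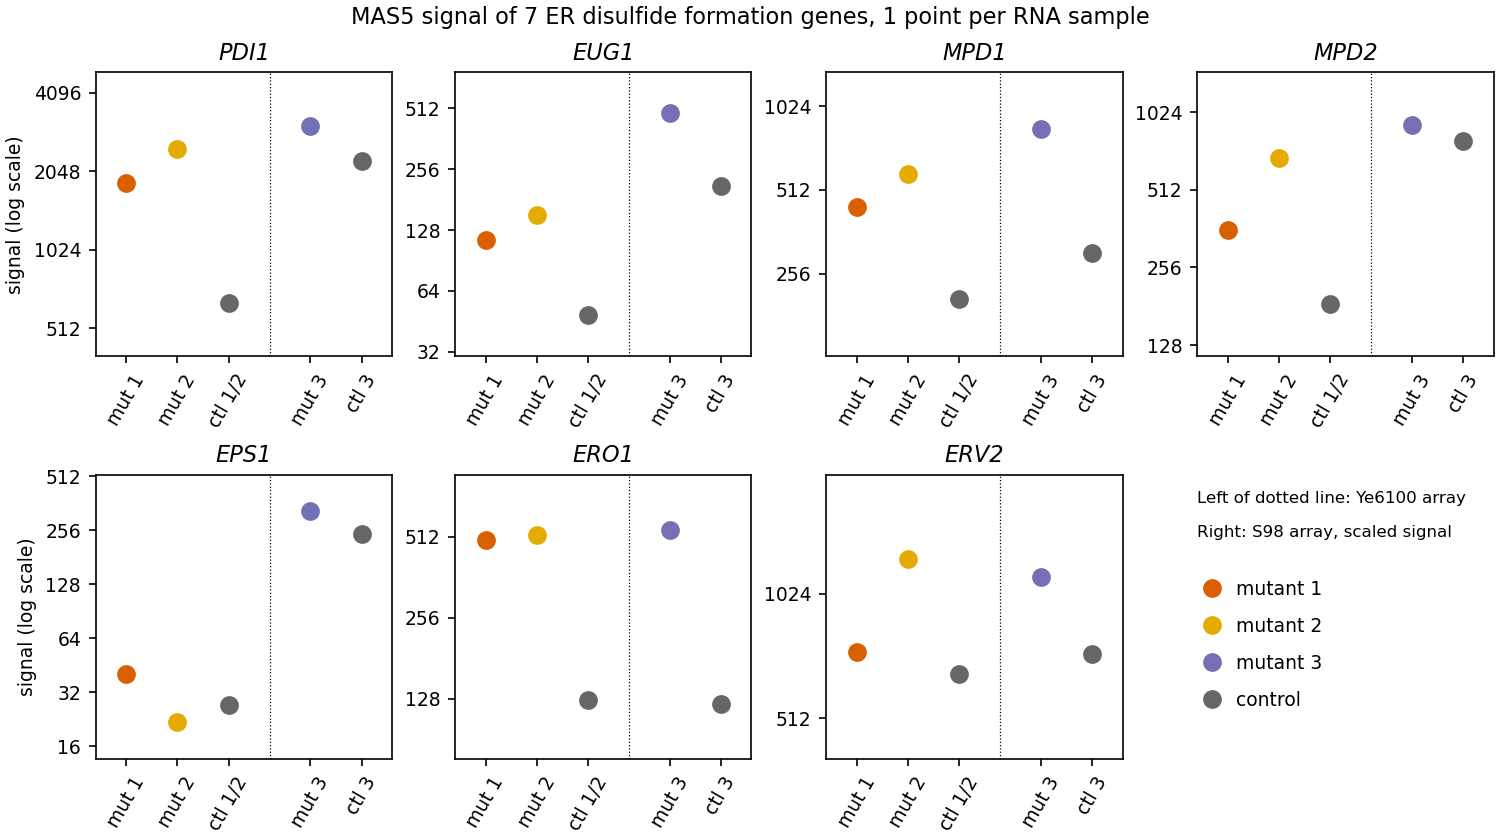
MAS5 signal (log scale) of each of the 7 genes in each RNA sample, with 1 point per sample, Ye6100 samples left of the dotted line and scaled S98 samples right of it. The ERO1 points of mutants 1, 2 and 3 sit at 496, 517 and 544 and those of control 1/2 and control 3 at 127 and 123, while the EPS1 points on Ye6100 lie between 21.8 and 40.2.

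None of the 7 genes passed the test over all genes. The fit was limma on log2 signal, with genotype as the tested term and array format as a block, and with p-values adjusted by Benjamini-Hochberg over the 4287 genes. It called 0 genes of any kind (0% of those tested) at an adjusted p under 0.05 and left 2 residual degrees of freedom. These hold the difference between mutants 1 and 2 and the difference of the mutant ratios between formats. No control was repeated within a format. At an unadjusted p under 0.05, 4 of the 7 were higher in the mutants, ERO1, EUG1, MPD1 and PDI1, where 5.44% of all tested genes were, and 0 were lower, where 1.12% of all genes were. The same 4 had a fitted log2 change of 1 or more, which 6.65% of tested genes reached. The median fitted log2 change was 1.19 over the 7 genes and 0.096 over all tested genes. By sample, the median log2 ratio of the 7 was 1.10, 1.65 and 0.62 in mutants 1, 2 and 3, beside 0.24, -0.04 and 0.13 over all tested genes. Median centring moved those medians of all genes to -0.07, 0.07 and -0.12.

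The outcome of the test changed when mutant 1 or mutant 2 was left out, and most without mutant 2. In either case each format holds a mutant and a control, so a gene's residual spread is the difference between formats alone. Such a fit leaves fewer residual degrees of freedom than the 2 of the full fit, and its p-values are a weak guide. Without that sample limma called 4 of the 7 genes, with adjusted p of 2.38e-04 for ERO1, 0.00671 for EUG1, 0.00671 for MPD1 and 0.0416 for PDI1, but it then also called 13.3% of all tested genes higher and 2.29% lower. Without mutant 1 it called ERO1 alone of the 7, at an adjusted p of 0.0415, with 0.467% of all genes called higher and 0.233% lower. Leaving out mutant 3 or either control gave 0 calls among the 7.

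**Figure D2:**
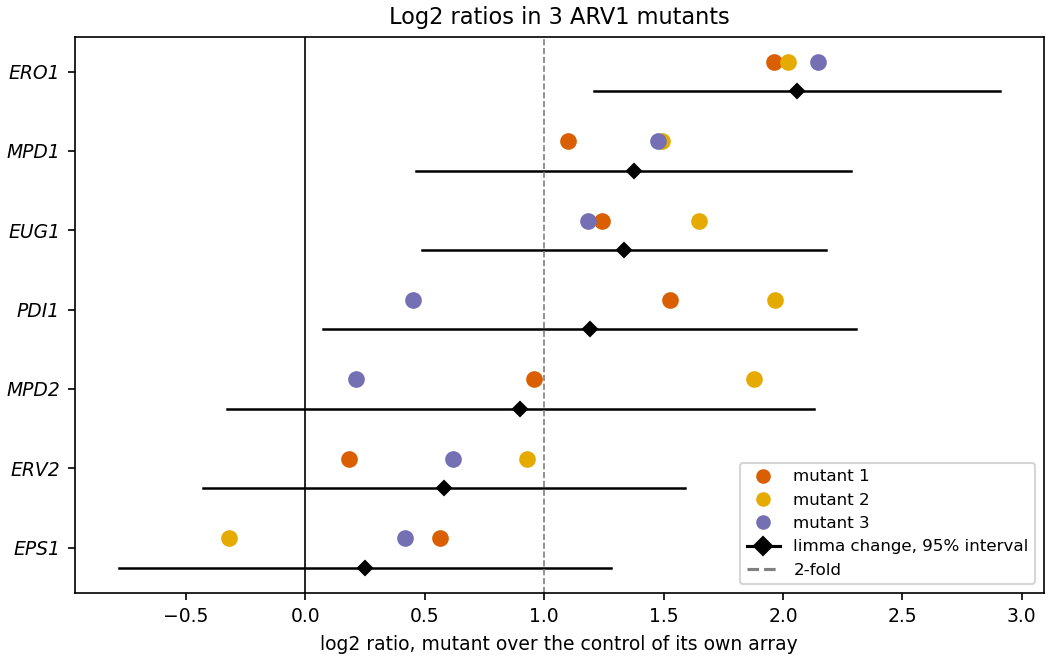
Log2 ratio of each mutant over the control of its own array (circles) and the limma log2 change with its 95% interval (diamond and line) for the 7 genes, sorted by fitted change. The ERO1 circles lie between 1.96 and 2.15, those of EUG1 and MPD1 right of the 2-fold line, those of PDI1 and MPD2 spread on both sides of it, and those of EPS1 on both sides of 0.

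ERO1 (YML130C) encodes the flavoprotein oxidase that recharges Pdi1. Its signal was 495.6 in mutant 1 and 516.9 in mutant 2, against 127.2 in control 1/2. On S98 the scaled signal was 544 in mutant 3, against 123 in control 3. Every mutant stood about 4-fold above the control of its own format. The log2 ratios of 1.96, 2.02 and 2.15 gave a fitted log2 change of 2.06 ± 0.34 (SE, 3 mutants and 2 controls), with a 95% interval of 1.21 to 2.91 and a limma adjusted p of 0.372. ERO1 held place 24 from the top among the fitted changes of the 4287 genes. In mutant 3, the sample with a control of its own, 0.863% of tested genes had a ratio as high.

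ERV2 (YPR037C), the other ER oxidase, is a small flavoprotein that can oxidise Pdi1 with oxygen when Ero1 is impaired. Its signal was 742.7 in mutant 1 and 1245 in mutant 2, against 654.9 in control 1/2, and its scaled signal was 1124 in mutant 3 against 732 in control 3. Mutant 1 lay close to its control, while mutants 2 and 3 lay 1.90-fold and 1.53-fold above theirs. The fitted log2 change was 0.58 ± 0.41 (SE), and the 95% interval of -0.43 to 1.59 reached from below 0 to a change of more than 2-fold, with a limma adjusted p of 0.848. In mutant 1, 53.7% of tested genes had a log2 ratio as high as that of ERV2 (0.18), which with median centring was -0.12. ERV2 overlaps the open reading frame IRC16 on the other strand, which was not analysed here.

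PDI1 (YCL043C) encodes the essential isomerase itself. On Ye6100 its signal was 1845 in mutant 1 and 2502 in mutant 2, against 640.3 in control 1/2. On S98 the scaled signal was 3065 in mutant 3, against 2245 in control 3. The deposited signals were 2167 and 3176, so the direction on S98 rests on the scaling. The same holds for MPD2, EPS1 and ERV2, whereas ERO1, EUG1 and MPD1 were higher in mutant 3 as deposited. Both Ye6100 mutants stood well above their control, by 2.88-fold and 3.91-fold, and mutant 3 was 1.36-fold its own. Of tested genes, 5.74% matched the PDI1 ratio in mutant 1 and 1.70% did in mutant 2, whereas 30.3% did on S98. The fitted log2 change was 1.19 ± 0.45 (SE), with a 95% interval of 0.07 to 2.31 and a limma adjusted p of 0.727. The log2 ratio on S98 was below the Ye6100 mean by 1.30 ± 1.23 (SE), a difference tested as an interaction of genotype and array format, which gave a limma adjusted p above 0.99. The interval of that difference, -4.18 to 1.59, is wide because the fit leaves 1 residual degree of freedom, and it called 0 genes over the whole table, with 6 at an unadjusted p under 0.05.

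EUG1 (YDR518W) encodes a non-essential relative of Pdi1 with atypical active sites. It gave 114.8 in mutant 1 and 152.1 in mutant 2, against 48.5 in control 1/2, and a scaled 483 in mutant 3 against 213 in control 3. Each mutant stood above its control, by 2.37-fold, 3.14-fold and 2.27-fold. The fitted log2 change was 1.33 ± 0.34 (SE), with a 95% interval of 0.49 to 2.18 and a limma adjusted p of 0.539.

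MPD1 (YOR288C) encodes a smaller member of the family, first found because extra copies support cells that lack Pdi1. Its signal was 444.7 in mutant 1 and 583.3 in mutant 2, against 207.4 in control 1/2. On S98 the scaled signal was 846 in mutant 3, against 304 in control 3. The mutants were again all above their controls, with mutants 2 and 3 nearly alike at 2.81-fold and 2.78-fold and mutant 1 at 2.14-fold. The fitted log2 change was 1.37 ± 0.37 (SE), with a 95% interval of 0.46 to 2.28 and a limma adjusted p of 0.565. With median centring the lowest of the 3 log2 ratios was 0.79 for MPD1, 0.93 for EUG1 and 1.66 for ERO1.

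MPD2 (YOL088C) encodes a further small member that can also stand in for Pdi1 when overproduced. It gave 358.8 in mutant 1 and 679.4 in mutant 2, against 185.0 in control 1/2, and a scaled 914 in mutant 3 against 789 in control 3. Mutant 2 stood highest at 3.67-fold, mutant 1 followed at 1.94-fold, and mutant 3 was 1.16-fold its control. The log2 ratio of 0.21 in mutant 3 was matched or passed by 44.8% of tested genes and was -0.04 with median centring. In the fit the log2 change was 0.90 ± 0.50 (SE), the largest SE of the 7, with a 95% interval of -0.33 to 2.13 and a limma adjusted p of 0.828.

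EPS1 (YIL005W) encodes a membrane-anchored member known for its part in the ER degradation of a mutant plasma membrane ATPase. On Ye6100 it was dim, at 40.2 in mutant 1 and 21.8 in mutant 2, against 27.2 in control 1/2, where the filter lay at a mean of 25.4. On S98 its scaled signal was 327 in mutant 3 and 245 in control 3. Mutant 1 stood above its control, mutant 2 below it, and mutant 3 at 1.34-fold its own. In the fit the log2 change was 0.25 ± 0.42 (SE), with a 95% interval of -0.78 to 1.28 and a limma adjusted p of 0.957, and without the block for array format it was -0.31.

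The size of these ratios can be set against repeat measurements on the Ye6100 set, in which each RNA sample was spread over 4 chips. Probe sets for ACT1, for SPT15 (the TATA-binding protein gene) and for SRB4 (a Mediator subunit gene) are each listed 4 times. These 4 listings are taken here as the 4 chips, although the chip of each listing is not named. Over the 18 sets of 4 log2 ratios, mutant over control 1/2, the SD between chips had a median of 0.26 and ranged from 0.11 to 0.94. Both Ye6100 ratios of ERO1, PDI1, EUG1, MPD1 and MPD2, 0.96 at the least, exceeded 0.94, the largest of these SDs, whereas the ERV2 ratios of 0.18 and 0.93 and the EPS1 ratios of 0.56 and -0.32 did not. This split depended on the scaling. With median centring the mutant 1 ratios of EUG1 (0.938), MPD1 (0.795) and MPD2 (0.650) lay below that SD (0.941), and ERV2 in mutant 2 lay above it (1.03). With quantile normalization MPD1 (0.859) and MPD2 (0.689) in mutant 1 lay below it. An SD between chips is a narrow measure here, because the means of these control probe sets themselves reached -1.37 in mutant 2. SRB4 was dim, with mean signals between 24.6 and 35.6 in control 1/2. In mutant 2 the mean log2 ratio of ACT1 was -1.31 for the probe set named 5, -0.88 for the middle one and -0.16 for the one named 3, so that a ratio in this sample depended on the end of the transcript that was probed. SRB4 in mutant 2 gave -1.37, -0.93 and 0.51 in the same order. SPT15 in mutant 2 gave -0.40, -0.13 and 0.21. In mutant 1 the 3 probe sets of ACT1 gave -0.23, -0.18 and -0.20, and those of SPT15 -0.25, -0.17 and -0.34. SRB4 in mutant 1 gave -0.37, -0.03 and 0.42, so the ratio of this dim gene varied with the end probed there too. Where the probes of the 7 genes lie along their transcripts was not analysed here. If the listings are the chips, these repeats cover hybridisation and scanning, not the culture or the extraction.

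**Figure D3:**
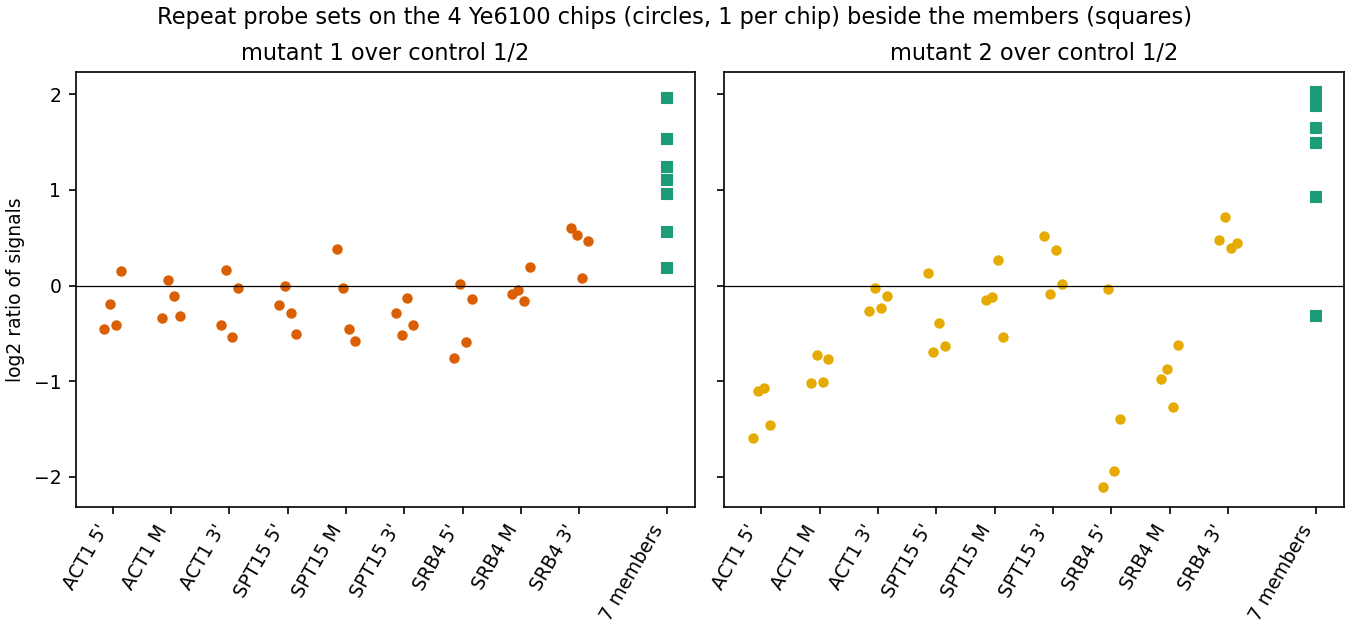
Log2 ratio over control 1/2 of the probe sets for ACT1, SPT15 and SRB4 (circles) beside the 7 genes (squares), for mutant 1 (left) and mutant 2 (right). Each circle is 1 of the 4 listings of a probe set, taken as the 4 Ye6100 chips. Probe sets are named for the 5' end, the middle (M) and the 3' end. In mutant 2 the ACT1 means run from -1.31 at the 5' end to -0.16 at the 3' end, and 6 of the 7 squares lie above 0.9.

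Both mutant isolates can be compared directly on Ye6100. SCY840 (mutant 2) had a higher signal than SCY820 (mutant 1) for 6 of the 7 genes, and a lower one for EPS1. The log2 difference, SCY840 minus SCY820, was 0.92 for MPD2, 0.74 for ERV2, 0.44 for PDI1, 0.41 for EUG1, 0.39 for MPD1, 0.06 for ERO1 and -0.88 for EPS1. The median over the 7 was 0.41, beside -0.25 over all tested genes, most of which were therefore lower in SCY840 at the deposited scaling. That lean depended on the scaling. The median log2 ratios of all genes in mutants 1 and 2 were -0.07 and 0.07 with median centring, and 0 and 0.07 with quantile normalization. No member differed by 2-fold or more, where 8% of tested genes were at least 2-fold higher in SCY840 and 23.8% at least 2-fold lower. With median centring MPD2 and ERV2 were over 2-fold higher in SCY840, at 1.33 and 1.16, where 18.8% of tested genes were 2-fold higher and 14.3% lower. With quantile normalization MPD2 was, at 1.17, where 15.1% were higher and 14.8% lower. There is 1 sample of each isolate here, so these differences have no replicate check. The ratio of 5' to 3' signal of ACT1 was 0.351 in mutant 2 and 0.764 in mutant 1, so isolate and RNA quality cannot be told apart.

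Isolate SCY840 was also measured on both formats, against SCY328 on Ye6100 and against SCY2004 on S98. ERO1 and MPD1 gave nearly the same ratio in both measurements, the log2 ratio of mutant 3 minus that of mutant 2 being 0.12 for ERO1 and -0.01 for MPD1. EUG1 and ERV2 followed at -0.46 and -0.31. For PDI1 and MPD2 the same difference was -1.52 and -1.66, and for EPS1 it was 0.74. Mutant 3 was opposite in sign to both Ye6100 mutants for 0 of the 7 genes, as for 18.8% of tested genes. With median centring it was for 1, MPD2 (17.5% of genes), and with quantile normalization for 0 (18.6%). The measurements differ in probes, control strain and RNA sample, and these cannot be told apart.

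**Figure D4:**
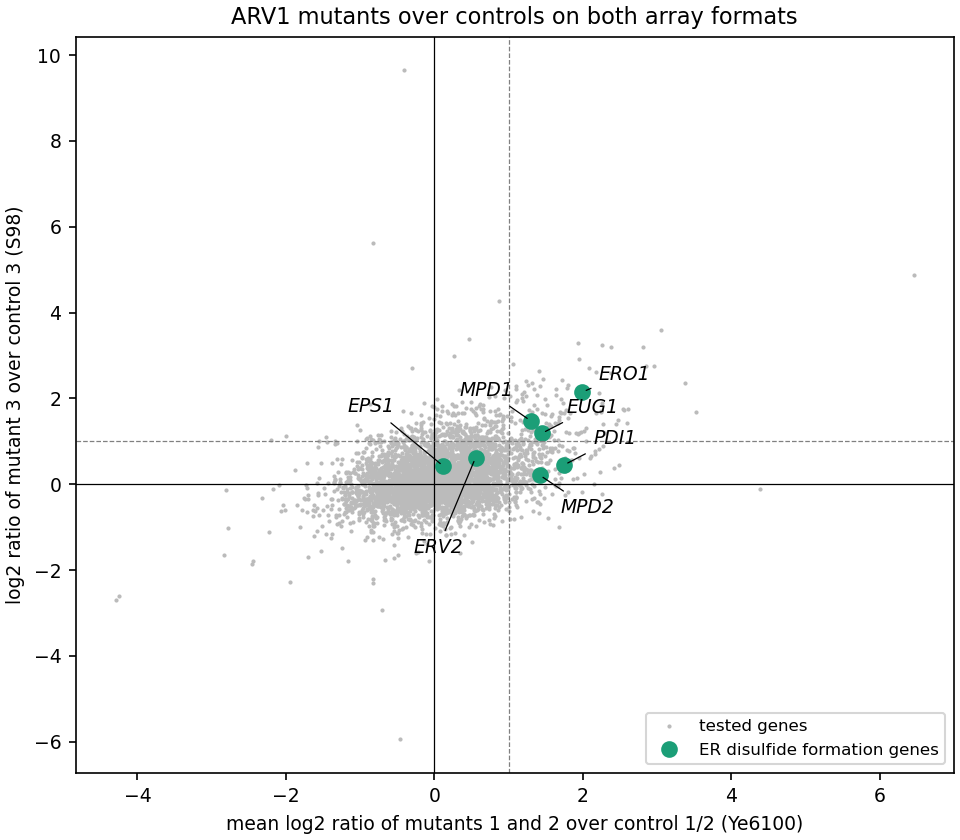
Mean log2 ratio of mutants 1 and 2 over control 1/2 on Ye6100 (x axis) against the log2 ratio of mutant 3 over control 3 on S98 (y axis) for 4287 tested genes (grey) and the 7 genes (green), with dashed lines at 2-fold. ERO1, MPD1 and EUG1 lie past 2-fold on both axes, while PDI1 and MPD2, at 1.75 and 1.42 on the x axis, lie at 0.45 and 0.21 on the y axis.

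The patterns nearest to ERO1 and PDI1 were sought among the tested genes outside the family, which far outnumber its members. Likeness was the Euclidean distance between the 3 log2 ratios of 2 genes over mutants 1, 2 and 3, and 3 genes were named for each. Closest to ERO1 were RBH2, SGA1 and CRG1, at distances of 0.39, 0.44 and 0.48. SGA1, a sporulation-specific glucoamylase gene, had a low Ye6100 control signal of 12.3, and the S98 probe set of CRG1 is marked as cross-hybridising. Closest to PDI1 were MXR2, a methionine sulfoxide reductase gene, COS8 and SEC66, a subunit gene of the Sec63 translocation complex, at 0.21, 0.25 and 0.26. The S98 probe set of COS8, a member of a gene family, is marked as cross-hybridising. ERO1 and PDI1 themselves were 1.75 apart, whereas ERO1 and MPD1 were 1.21 apart and PDI1 and MPD2 0.62. Set among the genes outside the family, MPD1 would take place 55 from ERO1 and MPD2 place 39 from PDI1.

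Related lists of genes had smaller median changes. Ero1 and Erv2 carry FAD, so the first list holds riboflavin and FAD synthesis and glutathione synthesis and recycling. Of its 12 tested genes 6 exceeded their control in every mutant (26.2% of all tested genes) and 1 lay below it (14.6%). Limma called 0, and at an unadjusted p under 0.05 it had 2 higher (5.44% of all tested genes) and 0 lower (1.12%). The median fitted log2 change of this list was 0.20. RIB1, for the first step of riboflavin synthesis, had log2 ratios of 2.05, 1.04 and 1.34 and a fitted log2 change of 1.46 ± 0.45 (SE), while the riboflavin kinase gene FMN1 had 1.15 ± 0.52. At the low end were FLX1, a mitochondrial FAD carrier gene, at -0.33 ± 0.56 and GSH1, for the first step of glutathione synthesis, at -0.55 ± 0.71. FAD1, the FAD synthetase gene, had log2 ratios of 1.42, 1.26 and 0.74, and it was chosen after its values were seen.

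The 13 glutaredoxin and thioredoxin genes tested keep thiols reduced mainly outside the ER. Of these, 4 exceeded their control in every mutant (26.2% of all tested genes) and 1 lay below it (14.6%). Limma called 0, and at an unadjusted p under 0.05 it had 1 higher (5.44% of all tested genes) and 0 lower (1.12%). Their median fitted log2 change was 0.42. The fitted log2 change was 1.21 ± 0.46 for TRX3, a mitochondrial thioredoxin gene, and 0.92 ± 0.53 for GRX8, against -0.05 ± 0.52 for GRX4 and -0.38 ± 0.38 for the thioredoxin reductase gene TRR1. The ER glycoprotein folding list includes the glucose and mannose trimming that Pdi1 and Mpd1 work beside. It had 2 of 7 tested genes above their control in every mutant (26.2% of all tested genes) and 0 below it (14.6%). It had 0 calls, 0 genes at an unadjusted limma p under 0.05 and a median of 0.07. KRE5 had 0.56 ± 0.32, or 0.46 from the mean of its probe sets, and ROT1 0.51 ± 0.41, while the glucosidase gene CWH41 had 0.01 ± 0.33 and GTB1, the glucosidase II subunit gene, -0.28 ± 0.64. CNE1, the calnexin gene, had log2 ratios of -0.22, 0.48 and 0.20 and was chosen after its values were seen.

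The mitochondrial disulfide relay, a separate system in which Erv1 recharges Mia40, served as a comparison outside the ER. Of 12 genes 8 were named on both formats and tested. Of these, 1 lay above its control in every mutant (26.2% of all tested genes) and 2 lay below theirs (14.6%). There were 0 calls and 0 genes at an unadjusted p under 0.05, and the median fitted log2 change was -0.19. ERV1, a relative of ERV2, had log2 ratios of -0.32, 0.38 and -0.58, and MIA40 had 0.29, -1.07 and -0.09, both chosen after their values were seen. By the same rule as in the other lists, HOT13 and COX17 stood at the high end, at 0.28 ± 0.34 and -0.10 ± 0.43, and CCS1, the copper chaperone gene for superoxide dismutase, and TIM13 at the low end, at -0.50 ± 0.39 and -0.29 ± 0.37. Over these 4 lists limma's adjusted p lay between 0.641 and 0.999.

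**Figure D5:**
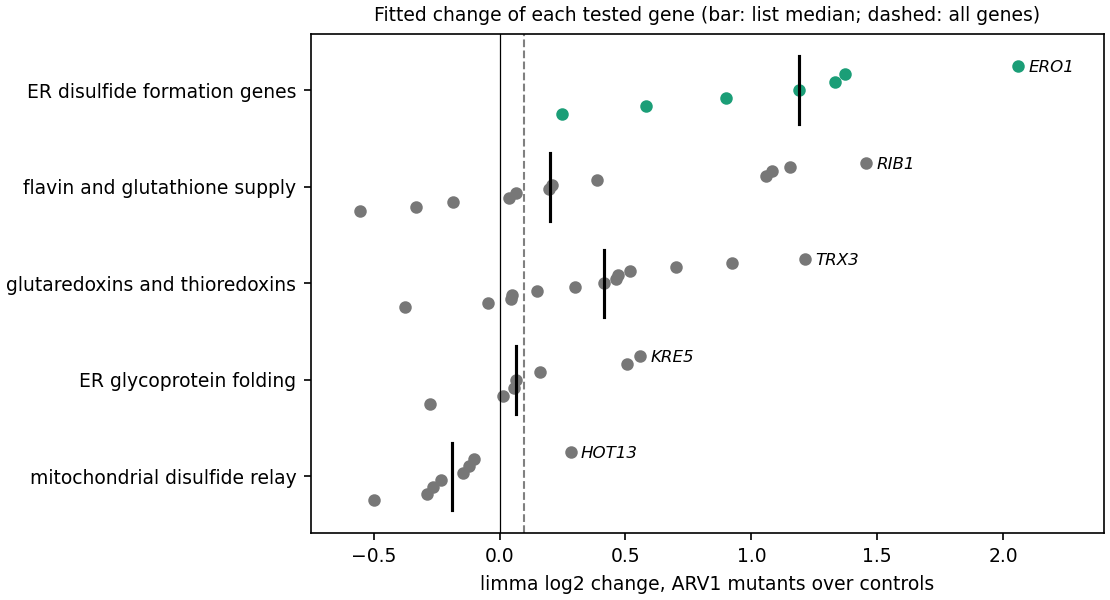
Fitted log2 change (limma, ARV1 mutants over controls) of each tested gene in the ER disulfide formation list (green) and in 4 related lists (grey), with the list median as a bar and the median of all tested genes, 0.096, as a dashed line. The medians are 1.19 for ER disulfide formation, 0.20 for flavin and glutathione supply, 0.42 for glutaredoxins and thioredoxins, 0.07 for ER glycoprotein folding and -0.19 for the mitochondrial disulfide relay.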

How the data were processed

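Biotin-labelled cRNA from poly(A) RNA went onto Affymetrix arrays, as the labels' protocols describe. The deposited values are MAS5 intensities, per the submitters' processing notes, which give neither a version nor a scaling target. The Ye6100 table joins the 4 chips of a sample, per the file headers, and these counted as 1 replicate.

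Ye6100 signals were used as deposited. The S98 columns were multiplied by 1.41 (mutant 3) and 0.707 (control 3). A floor at each table's 5th percentile (2.4 and 1.98) came before log2. Genes were matched by systematic name or platform symbol through the R64 gene table, and taken at their brightest probe set. Testing required a mean above the 25th percentile (25.4 and 28.1) on both formats. The test was limma 3.58.1 in R 4.3.3 (lmFit, eBayes with a trend), two-sided, on 3 mutants and 2 controls with array format as a block, and the script was tested on simulated data. Figures used matplotlib 3.10.9.

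Named genes are the 7 members, ARV1, the 2 highest and 2 lowest of each related list, and the 3 nearest patterns to ERO1 and PDI1 outside the 7. Others are marked as chosen later. Members and lists were chosen with earlier results of these data known. Alternatives covered scaling, floor, filter, probe sets, trend, block and leaving out samples. The number of arrays limits the precision.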

Additional observations from a re-analysis of the deposited data

Results flagged for a closer look

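Mutant 3 on S98 and both Ye6100 mutants lay on opposite sides of their controls for 12 of the 40 tested genes of the related lists, where 18.8% of all tested genes did. Among the 7 disulfide formation genes 0 did so, and with median centring MPD2 did, at -0.039 on S98. Of the genes named from the lists, GRX8 had a log2 ratio of -0.018 in mutant 3 and 1.24 and 2.01 in mutants 1 and 2. CWH41 had 0.17 in mutant 3 and -0.20 and -0.018 in mutants 1 and 2. GTB1 had 0.72 in mutant 3 and -0.50 and -1.55 in mutants 1 and 2, and COX17 had -0.79 in mutant 3 and 0.33 and 0.51 in mutants 1 and 2. Both neighbours of EUG1 on its chromosome met the same description. GRH1 had 0.055 in mutant 3 and -0.13 and -0.79 in mutants 1 and 2, and FPR2 had -0.35 in mutant 3 and 0.89 and 1.74 in mutants 1 and 2. The interaction of genotype and array format in limma called 0 of all tested genes, with a smallest adjusted p of 0.474 and 6 genes at an unadjusted p under 0.05.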

How the results depend on the processing

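Of 62 fitted changes of the 7 genes under another scaling, floor, filter, probe set rule or variance model, or with no replicate block, 61 kept direction and call. The floor, filter, probe set rule and variance model left each fitted change as reported, so under these just the call could differ. Direction could change with median centring, quantile normalization or no replicate block alone. The reversed change was EPS1 at -0.31 with no replicate block, a fit that leaves the difference between formats in the residual. Of the 62, 0 were called. ERO1 ranged from 1.89 to 2.06 over these settings, MPD1 from 1.21 to 1.37, EUG1 from 1.00 to 1.33, PDI1 from 1.01 to 1.26, MPD2 from 0.67 to 0.90, ERV2 from 0.42 to 0.58 and EPS1 from -0.31 to 0.25. The filter at the 50th percentile removed EPS1. Limma called 1 gene of the whole table with quantile normalization, and 0 under the other settings that kept all samples. The paired fit with format as the block is the one reported, and without the block 0 of the 7 were called.

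Leaving out each sample in turn gave 0 to 669 calls over all genes, 669 without mutant 2 and 30 without mutant 1, and 0 to 4 calls among the 7. Fitted changes then ranged from 1.99 to 2.15 for ERO1, 1.29 to 1.48 for MPD1, 1.18 to 1.45 for EUG1, 0.45 to 1.75 for PDI1, 0.21 to 1.42 for MPD2, 0.40 to 0.77 for ERV2 and 0.05 to 0.49 for EPS1. PDI1 and MPD2 were at 0.45 and 0.21 without control 1/2, which leaves S98 alone, and at 1.75 and 1.42 without control 3 or mutant 3, which leaves Ye6100 alone. The count of the 7 at least 2-fold higher in all mutants was 3 as reported, 3 without mutant 1 or mutant 2 and 4 without mutant 3 (left out after seeing the data, with 2.43%, 5.51% and 4.76% of all tested genes without mutants 1, 2 and 3), and 1 with median centring and 1 with quantile normalization. The count at least 2-fold apart between the isolates was 0 as reported, 2 with median centring and 1 with quantile normalization, scalings under which 18.8% and 15.1% of tested genes were 2-fold higher in SCY840. The causes were not tested.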

Other observations

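The genes on either side of the 7 on their chromosomes, by the R64 gene order, were read out as well, a set chosen after the data were seen. Of 14 neighbours 9 were tested. Of these, 3 exceeded their control in every mutant (26.2% of all tested genes) and 0 lay below it in every mutant (14.6%). Their median fitted log2 change was 0.54, beside 0.096 over all tested genes. YOR289W is transcribed away from MPD1 across the space between both genes. It had signals of 279.6 in mutant 1 and 136.1 in mutant 2, against 57.0 in control 1/2, and 920 in mutant 3 against 275 in control 3. The log2 ratios of YOR289W were 2.29, 1.26 and 1.74, so it was the 1 tested neighbour at least 2-fold higher in all 3 mutants, a size that 2.08% of tested genes reached, and its fitted log2 change was 1.76 ± 0.44 (SE, limma adjusted p of 0.526).

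Both neighbours of ERO1 lay below it in each mutant, as most tested genes did. The ERO1 ratio was reached by 2.59%, 1.38% and 0.863% of tested genes in mutants 1, 2 and 3. COX14, a gene for assembly of cytochrome oxidase, had log2 ratios of -0.04, 0.32 and -0.36, and YML131W had 1.79, 0.17 and 0.10. YCL042W, which is transcribed away from PDI1, had 0.48, -1.80 and -0.15, and MGR1, on its other side, 1.62, -0.15 and 2.02. FPR2, which follows EUG1 and encodes an ER-linked peptidyl-prolyl isomerase, had 0.89, 1.74 and -0.35, above its control in both Ye6100 mutants and below it in mutant 3.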
